A study of Mus musculus with 6 samples.

Results

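The E2F transcription factors and their pocket protein partners were followed at the RNA level in NIH3T3 cells, an established line of mouse embryonic fibroblasts. The members were taken by name and not by their values, though earlier results of these data were known. They are E2f1 to E2f8, Rbl1 and Rbl2, which are 10 of the 24938 genes listed. All 10 were found. The comparison was between 3 libraries of cells labelled wild type and 3 of cells that overexpressed F-CircAE, a circular RNA related to the leukaemia fusion AML1-ETO. The labels describe no empty-vector group, so the circular RNA and the procedure that delivered it cannot be told apart. Nothing in the labels ties a library to its own culture, and p-values here reflect library-to-library spread that may be purely technical.

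E2F proteins bind a GC-rich site in the promoters of genes for DNA synthesis and cell division. The activators E2f1, E2f2 and E2f3 drive these genes as cells leave G1. E2f4 and E2f5 work mostly as repressors, together with a pocket protein. E2f6 represses without a pocket protein, in complexes with Polycomb group proteins. The atypical members E2f7 and E2f8 bind DNA without a DP partner and switch the same genes off later in the cycle. The pocket proteins encoded by Rbl1 and Rbl2 bind E2Fs and are released when cyclin-dependent kinases phosphorylate them. Rbl2 is known as the main pocket protein of resting cells, and Rbl1 as one that rises in cycling cells and is itself an E2F target. In the DREAM complex a pocket protein, E2f4 or E2f5 and the MuvB core hold cell cycle genes off during quiescence.

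Several genes of the family carry in their own promoters the site that the family binds, and these stretches are shown for that reason. RefSeq promoter windows (GRCm38.p6, 250 bases before to 50 after a transcript start) were found for 8 of the 10 members, in 10 windows. The motifs TTTCCCGC, TTTGGCGC, TTTCGCGC and TTTGCCGC were searched on both strands, and none of the matches overlapped. E2f2, E2f3, E2f7 and Rbl1 each held 1 match, in capitals in the 30 bases printed below 5′ to 3′ on the strand of the gene. Of all 32851 windows of the same length, 2.26% held a match.
E2f2, chr4:136172294-136172323, plus strand: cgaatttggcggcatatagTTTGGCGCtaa
E2f3, chr13:29986056-29986085, minus strand: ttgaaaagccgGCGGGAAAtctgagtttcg
E2f7, chr10:110745230-110745259, plus strand: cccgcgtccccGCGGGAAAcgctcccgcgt
Rbl1, chr2:157204534-157204563, minus strand: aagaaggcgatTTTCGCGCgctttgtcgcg
In E2f3 and Rbl1 the centre of the match lay 7 and 14 bases before the transcript start. In E2f7 it lay 194 bases before it, and in E2f2 43 bases after it. For E2f2 the RefSeq transcript start differs from the gene start listed below, 136172394, and the printed stretch lies before the latter. E2f3 and E2f7 carry TTTCCCGC on the opposite strand, so it reads GCGGGAAA here. The windows of E2f1, E2f6, E2f8 and Rbl2 held none of these letters. The E2f1 window (chr2:154569377-154569676, minus strand) lay inside the gene as listed below, which starts at 154569892 on that strand. Sequence around that listed start was not searched, so the promoter of E2f1 is described only in part. The letters TTTGAA, which make up the cell cycle homology region, were present in at least 1 window of E2f2, E2f3, E2f8 and Rbl2, and in 17.9% of all windows. A match is a description of the sequence, and binding was not measured.

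Reads recovered from the FPKM values numbered 16968180 to 21842251 per library. Wild type replicates 1 and 2 were far closer to each other than any other pair, with a chi-square per gene of 1.46 where counting error alone gives 1, against 5.15 to 25.1 in the other 14 pairs. If those libraries share a culture or an RNA, standard errors with n = 3 are too small. Wild type replicate 3 (11.2) and overexpression replicate 1 (16.6) lay at the other end of the first principal component from wild type replicates 1 and 2 (-13.9 and -13.3). Of the fibroblast markers, some were high, with Col1a1 at 444 to 607 FPKM, Col1a2 at 405 to 553 and Vim, which encodes vimentin, at 560 to 665. The other fibroblast markers were far lower, with Pdgfrb at 6.91 to 17.8 FPKM, S100a4 at 2.08 to 3.58 and Thy1 at 0.873 to 3.61. The leukocyte marker Ptprc did not exceed 0.012 FPKM and the macrophage receptor gene Csf1r did not exceed 0.133, while Cd68 reached 6.34. Epithelial Cdh1 lay at 2.19 to 2.82 FPKM and Krt14 at 2.37 to 6.06, the muscle gene Des at 1.84 to 2.33, and Actn2 at no more than 0.042. Endothelial Pecam1 did not exceed 0.406 FPKM and Cdh5 did not exceed 0.933.

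Of the 10 genes, 9 were expressed above 1 FPKM in every library and E2f6 was not. FPKM is scaled to gene length, and the order below is that of the listed FPKM. The length behind the values of E2f3, E2f4, E2f6 and Rbl2 is not known, since the annotated exon length did not give whole reads. Read counts and counting error of these genes rest on the smallest length that did. Comparisons of level between genes are limited by this. E2f4 had the highest mean level over the 6 libraries, 26.9 FPKM, and its range did not overlap that of any other member. E2f1 (17.7 FPKM), Rbl1 (16.4) and E2f3 (15.6) followed, and neighbours in that order overlapped in range. E2f1 exceeded Rbl1 in 5 of 6 libraries and Rbl1 exceeded E2f3 in 4 of 6. E2f5 came next at 10.7 FPKM, clear of both its neighbours. E2f7 (7.09) and E2f8 (6.66) overlapped each other, and so did Rbl2 (4.60) and E2f2 (4.09), with each pair in the same order in 5 of 6 libraries.

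**Figure D1:**
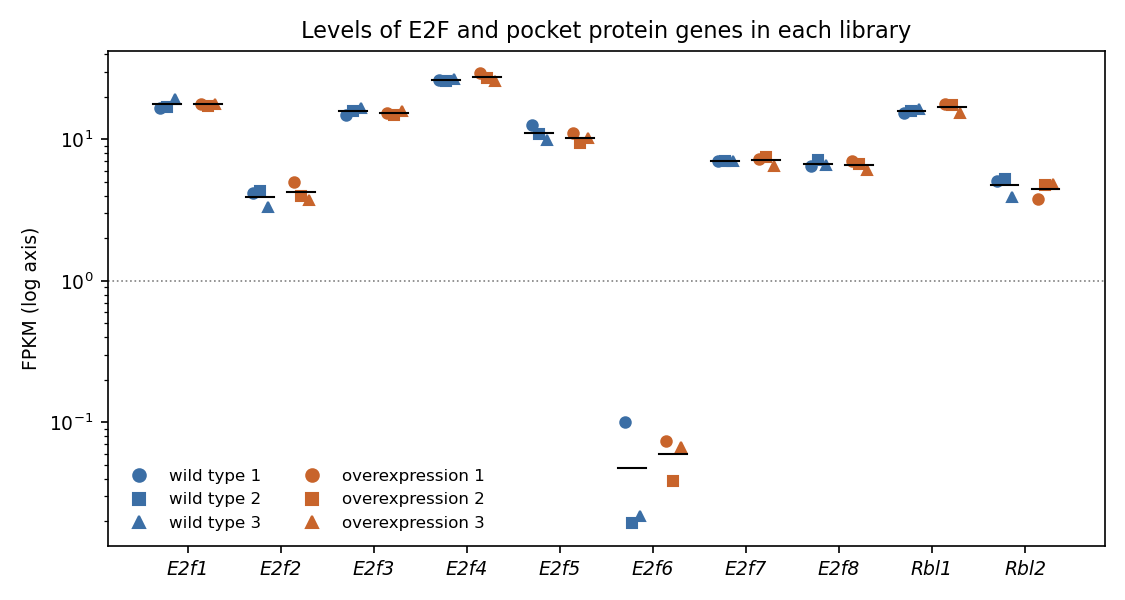
FPKM on a log axis of the 10 genes in each library, with wild type in blue and overexpression in orange, the replicate number as the marker shape, group means as black bars and a dotted line at 1 FPKM. E2f4 is highest at 25.8 to 29.4 FPKM, E2f6 lies at or below 0.101 FPKM in all libraries, and for every gene the points of both groups overlap.

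No member passed the test of overexpressing against wild type cells. Of 9 tested members 0 passed an adjusted p of 0.05 (limma on log2(FPKM + 1), Benjamini-Hochberg over 12222 genes), where the share of all tested genes that passed was 0%. At an unadjusted limma p below 0.05 there were 0 members, beside 5.17% of all tested genes. In 0 of the 9 did the groups separate without overlap, beside 11.5% of all tested genes, 6.81% with overexpression higher and 4.69% with it lower. The median log2 fold change of the 9 was 0.0029, beside 0.0084 over all tested genes, with 5 estimates above 0 and 4 below. The smallest adjusted p among the members was 0.850 (limma), shared by E2f4, E2f5 and Rbl1. The 95% intervals lay between ratios of 0.778 and 1.30 of overexpression to wild type on the FPKM + 1 scale for all 9. A 1.5-fold difference of FPKM + 1 lay outside each of them. These intervals treat all libraries as independent and are too narrow if wild type replicates 1 and 2 share a culture or an RNA. RNA from whole cultures was measured, so a change in the share of cycling cells and a change of RNA per cell cannot be told apart in any value given here.

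**Figure D2:**
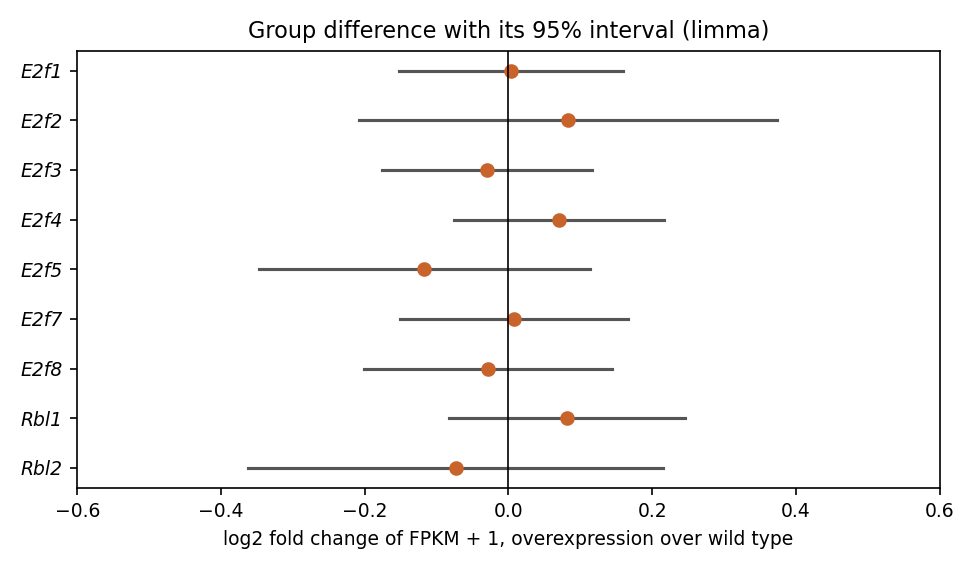
Log2 fold change of FPKM + 1 for the 9 tested members as points, with 95% intervals from limma as lines. Every interval spans 0. Those of E2f2 and Rbl2 are widest, from -0.21 to 0.37 and from -0.36 to 0.22.

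Among the activators, E2f1, which drives entry into S phase, stood at 16.8, 17.0 and 19.2 FPKM in wild type replicates 1, 2 and 3 and at 17.8, 17.3 and 17.9 FPKM in overexpression replicates 1, 2 and 3. Wild type replicate 3 was the highest of the 6 and the other wild type libraries were the lowest, so the overexpressing libraries lay inside the wild type range. The means were 17.7 ± 1.33 and 17.7 ± 0.299 FPKM (SD, n = 3), and the log2 fold change was 0.0029 ± 0.066 (standard error; limma adjusted p = 0.998). The estimate changed sign under other scalings, to -0.021 with a common upper quartile and -0.058 with a common sum of FPKM. E2f1 lies on chromosome 2 from 154559407 to 154569892 (ENSMUSG00000027490, mm10) and rested on 952 to 1177 reads per library.

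E2f3, the other well expressed activator, held 14.8, 15.8 and 16.6 FPKM in wild type replicates 1, 2 and 3 and 15.3, 14.96 and 15.9 FPKM in overexpression replicates 1, 2 and 3. Its 6 values were the closest together of any member, with the highest 1.12 times the lowest. The log2 fold change was -0.030 (95% interval -0.18 to 0.12, limma adjusted p = 0.929). E2f3 lies on chromosome 13 from 29906575 to 29986063 (ENSMUSG00000016477).

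E2f2, the least expressed activator, stood at 4.15, 4.34 and 3.33 FPKM in wild type replicates 1, 2 and 3 and at 5.03, 3.98 and 3.71 FPKM in overexpression replicates 1, 2 and 3. E2f2 lies on chromosome 4 from 136172394 to 136196057 (ENSMUSG00000018983). The lowest library was wild type replicate 3 and the highest was overexpression replicate 1, with the remaining libraries mixed between them. The means were 3.94 ± 0.538 and 4.24 ± 0.700 FPKM (SD, n = 3; log2 fold change 0.083, limma adjusted p = 0.898). E2f2 had the widest spread of the tested members, 1.51-fold from lowest to highest, and a within-group coefficient of variation of 15.3% where counting error gives 5.05%. Without overexpression replicate 1 its log2 fold change was -0.023, and without wild type replicate 3 it was -0.010. Together the 3 activators summed to 37.4 ± 1.70 FPKM in wild type cells and 37.3 ± 0.965 FPKM with overexpression (SD, n = 3).

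Of the repressor class, E2f4, the usual E2F of the DREAM complex, held 26.2, 25.8 and 26.6 FPKM in wild type replicates 1, 2 and 3 and 29.4, 27.3 and 26.0 FPKM in overexpression replicates 1, 2 and 3. Overexpression replicates 1 and 2 exceeded all wild type libraries, whereas overexpression replicate 3 fell among them. The means were 26.2 ± 0.424 and 27.6 ± 1.68 FPKM (SD, n = 3), with a log2 fold change of 0.070 and a 95% interval of -0.076 to 0.22 (limma adjusted p = 0.850). E2f4 lies on chromosome 8 from 105297663 to 105305370 (ENSMUSG00000014859).

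E2f5, its close relative, had 12.6, 10.98 and 9.93 FPKM in wild type replicates 1, 2 and 3 and 11.03, 9.36 and 10.2 FPKM in overexpression replicates 1, 2 and 3. E2f5 lies on chromosome 3 from 14578641 to 14606309 (ENSMUSG00000027552). Wild type replicate 1 was highest and overexpression replicate 2 lowest, and the groups overlapped. Its log2 fold change of -0.12 was the farthest from 0 among the members, with a standard error of 0.097 (limma adjusted p = 0.850). It rested in part on single libraries, at -0.034 without wild type replicate 1, -0.062 without overexpression replicate 2 and -0.19 without wild type replicate 3. Weighting the libraries by array weights moved it to -0.26 and past the threshold (limma adjusted p = 0.037), a setting under which 18.3% of all tested genes passed. Those weights were 2.16 and 2.57 for the near-identical wild type replicates 1 and 2, 0.236 for wild type replicate 3 and 0.278, 4.64 and 0.593 for overexpression replicates 1, 2 and 3. With wild type replicates 1 and 2 averaged to 1 library, 0 members passed with array weights, where the smallest limma adjusted p among them was 0.913.

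E2f4 and E2f5 together summed to 37.4 ± 1.24 FPKM in wild type and 37.8 ± 2.29 FPKM with overexpression (SD, n = 3), nearly the level of the 3 activators. This nearness holds for listed FPKM only, as the gene lengths behind E2f3 and E2f4 are not known. The ratio of activators to these repressors ran from 0.922 to 1.07 over the wild type libraries and from 0.945 to 1.03 over the overexpressing ones.

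E2f6 was listed at 0.101, 0.019 and 0.022 FPKM in wild type replicates 1, 2 and 3 and at 0.073, 0.038 and 0.066 FPKM in overexpression replicates 1, 2 and 3. It lies on chromosome 12 from 16810963 to 16839742 (ENSMUSG00000057469). It did not reach the level needed for testing, and no fold is given. The 2 nearest protein-coding genes listed on either side of it on chromosome 12 were Greb1, which encodes an oestrogen-responsive protein, at 0.423 to 0.611 FPKM, and Rock2, which encodes a protein kinase, at 55.5 to 59.3 FPKM. A low listing here need not mean a silent gene, since Fen1, whose flap endonuclease every dividing cell needs for DNA replication, was listed at only 0.287 to 0.561 FPKM. The reason for either listing was not tested. Among the Polycomb-type partners of E2f6, Pcgf6, Mga, L3mbtl2, Ring1, Rnf2, Max and Cbx3, all 7 were tested and 0 passed in either direction, with a median log2 fold change of 0.015. The sign of that median was not stable, at -0.045, -0.007 and -0.019 without wild type replicate 1, wild type replicate 2 and overexpression replicate 1, and at -0.043 with a common sum of FPKM. Max, the common partner of Myc family proteins, had 23.1 ± 1.47 FPKM in wild type and 24.8 ± 1.28 with overexpression, and Cbx3, a heterochromatin protein, had 25.2 ± 1.03 and 26.7 ± 2.52 FPKM (SD, n = 3). Of 4 germline genes that E2F6 is known to silence, 3 were listed and none was high enough to test. Stag3, a meiotic cohesin subunit, did not exceed 0.093 FPKM, and Smc1b, another, did not exceed 0.015. The tubulin gene Tuba3a did not exceed 0.186 FPKM.

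E2f7, an atypical repressor, was almost level in wild type cells, at 7.10, 7.07 and 7.01 FPKM in replicates 1, 2 and 3. E2f7 lies on chromosome 10 from 110745439 to 110787384 (ENSMUSG00000020185). In overexpression replicates 1, 2 and 3 it stood at 7.26, 7.57 and 6.52 FPKM, on both sides of the wild type values. The log2 fold change was 0.0080 (95% interval -0.15 to 0.17, limma adjusted p = 0.987), and it turned to -0.014 with a common upper quartile and to -0.049 with a common sum of FPKM. E2f8, its closest relative, held 6.46, 7.17 and 6.56 FPKM in wild type replicates 1, 2 and 3 and 6.997, 6.70 and 6.05 FPKM in overexpression replicates 1, 2 and 3. The groups overlapped, and the log2 fold change was -0.029 (95% interval -0.20 to 0.14, limma adjusted p = 0.944). E2f8 lies on chromosome 7 from 48866429 to 48881596 (ENSMUSG00000046179). In both genes overexpression replicate 3 was the lowest of the 6 libraries. Exons of E2f8 share 610 of 5443 bases with Gm2788 on the opposite strand, and use of strand in counting is not given in the sources used here, so part of its reads is uncertain.

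Of the pocket proteins, Rbl1 stood at 15.3, 15.9 and 16.5 FPKM in wild type replicates 1, 2 and 3 and at 17.7, 17.5 and 15.4 FPKM in overexpression replicates 1, 2 and 3. Rbl1 lies on chromosome 2 from 157145893 to 157204534 (ENSMUSG00000027641). As for E2f4, overexpression replicates 1 and 2 exceeded all wild type libraries and overexpression replicate 3 did not. The means were 15.9 ± 0.589 and 16.9 ± 1.25 FPKM (SD, n = 3), with a log2 fold change of 0.082 and a standard error of 0.069 (limma adjusted p = 0.850). Leaving out overexpression replicate 3 separated the groups in E2f4, E2f7 and Rbl1, in a setting that separated 26.9% of all tested genes, and none of these genes passed the threshold there.

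Rbl2 held 5.05, 5.27 and 3.92 FPKM in wild type replicates 1, 2 and 3 and 3.78, 4.74 and 4.84 FPKM in overexpression replicates 1, 2 and 3. Rbl2 lies on chromosome 8 from 91070057 to 91123844 (ENSMUSG00000031666). The low libraries were wild type replicate 3 and overexpression replicate 1, 1 from each group, which are also the pair highest on the first principal component of all tested genes. The means were 4.75 ± 0.724 and 4.46 ± 0.585 FPKM (SD, n = 3; log2 fold change -0.074, limma adjusted p = 0.910). Its within-group coefficient of variation was 14.3%, where counting error at 446 to 784 reads gives 3.97%. Without wild type replicate 3 the log2 fold change was -0.18 (limma adjusted p = 0.441) and the groups of Rbl2 and E2f1 no longer overlapped, in a setting that separated 39.7% of all tested genes. Without overexpression replicate 1 it was 0.018. Exons of Rbl2 share 693 of 7558 bases with Aktip and 892 with Gm45464, both on the opposite strand. The ratio of Rbl1 to Rbl2 was 3.02, 3.01 and 4.19 in wild type replicates 1, 2 and 3. With overexpression it was 4.67, 3.69 and 3.18 in the same order. It was thus highest in the same 2 libraries and did not sort them by group.

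**Figure D3:**
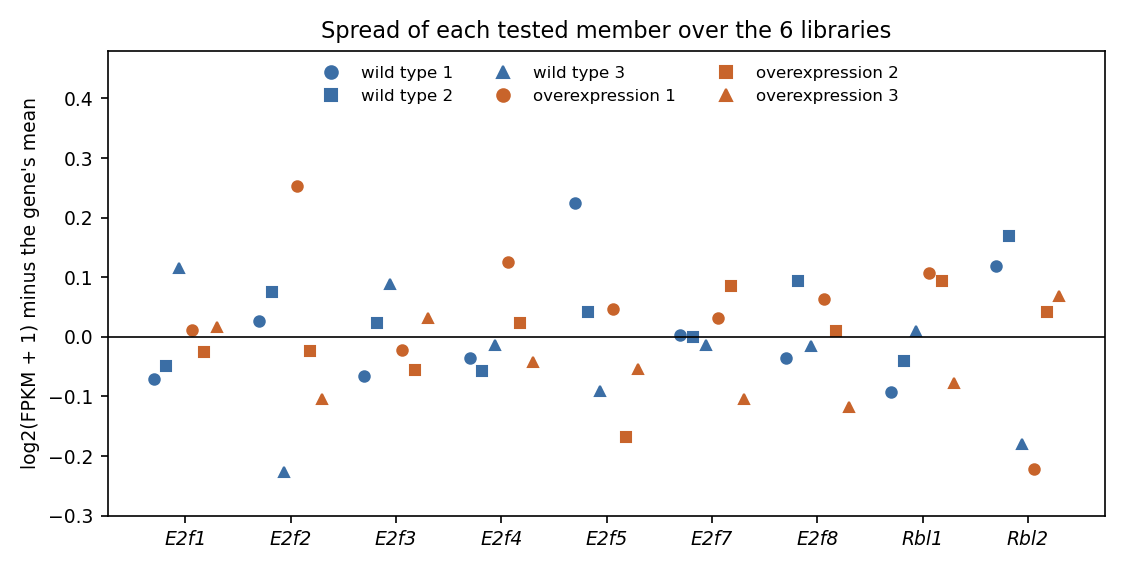
log2(FPKM + 1) of each tested member minus its own mean over the 6 libraries, wild type in blue and overexpression in orange, with the marker shape giving the replicate number. E2f2, E2f5 and Rbl2 spread widest, and in Rbl2 wild type replicate 3 (-0.18) and overexpression replicate 1 (-0.22) fall below the other 4 libraries.

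The genes whose profiles over the 6 libraries lay nearest to those of Rbl2 and E2f2, the members with the largest spread, were sought among 10452 tested protein-coding genes. Nearness was the root mean square difference of log2(FPKM + 1), each gene centred on its own mean. For Rbl2 these were D10Jhu81e at 0.015, Etl4 at 0.018 and Mpst, a sulfurtransferase gene, at 0.024. Mpst likewise had its lowest values in wild type replicate 3 (25.4 FPKM) and overexpression replicate 1 (24.9 FPKM), beside 30.1 to 33.6 in the others. For E2f2 they were Actn1, which encodes the actin crosslinker alpha-actinin, at 0.026, Mss51 at 0.031 and Rab4a, a vesicle transport GTPase gene, at 0.039. Actn1 stood lowest in wild type replicate 3 (90.6 FPKM) and highest in overexpression replicate 1 (125.0 FPKM), as E2f2 did. A profile of 6 libraries has many near neighbours among this number of genes, and the likeness is a description.

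Genes that act with, upstream or downstream of the family were taken from lists drawn up from their known roles. Earlier results of these data were known when the lists were drawn up. In none of the 7 lists with a tested gene did a gene pass in either direction, with a smallest adjusted p of 0.842 (limma). The DP partners that typical E2Fs need to bind DNA went opposite ways in estimate. Tfdp1 had 61.1 ± 3.62 FPKM in wild type and 67.2 ± 4.10 with overexpression, and Tfdp2 had 3.02 ± 0.565 and 2.64 ± 0.049 FPKM (SD, n = 3). In the MuvB core and its partner Mybl2, 6 of 6 were tested and the median log2 fold change was 0.068. That median was 0.044 without wild type replicate 2, 0.114 without overexpression replicate 3 and 0.011 with a common sum of FPKM. Rbbp4, a histone-binding subunit, had 20.9, 21.3 and 21.1 FPKM in wild type replicates 1, 2 and 3 and 22.6, 23.0 and 23.1 FPKM in overexpression replicates 1, 2 and 3. It was the single gene of this list whose groups did not overlap (log2 fold change 0.11, limma adjusted p = 0.842), 16.7% of 6 genes beside 11.5% of all tested genes. Lin54, the DNA-binding subunit, had 7.07 ± 0.026 and 7.67 ± 0.705 FPKM (SD, n = 3).

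The 10 G1 cyclins, kinases and inhibitors that control pocket protein phosphorylation had a median log2 fold change of 0.084. That median was 0.041 without wild type replicate 1, 0.034 without wild type replicate 2 and 0.023 with a common sum of FPKM. Cdk4, which phosphorylates pocket proteins with D-type cyclins, had 97.7 ± 0.582 FPKM in wild type and 106 ± 3.45 with overexpression (SD, n = 3). It was the single gene of this list whose groups did not overlap (limma adjusted p = 0.842), 10% of 10 genes beside 11.5% of all tested genes. Ccne2, an E-type cyclin, had 5.60 ± 0.919 and 6.19 ± 0.694 FPKM (SD, n = 3). Of 4 genes for the turnover of E2Fs and their regulators, Ccnf, which encodes the ubiquitin ligase subunit cyclin F, had 13.9 ± 1.16 and 15.2 ± 1.79 FPKM, and Fzr1, which activates the anaphase-promoting complex late in mitosis, stood at 16.4 ± 0.377 and 17.5 ± 0.653 FPKM (SD, n = 3).

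Estimates for the downstream genes leaned above 0 while those of the family itself did not, although the difference between the lists was not tested. The lean was not particular to downstream genes. Above 0 were also 8 of 10 G1 cyclins, kinases and inhibitors and 5 of 6 genes of the MuvB core and Mybl2. Of the turnover genes 3 of 4 lay above 0, of the E2F6 partners 4 of 7 and of the DP partners 1 of 2. Of 22 tested classical E2F targets of G1/S, 19 were estimated above 0 and the median log2 fold change was 0.12, beside 6506 of 12222 tested genes and a median of 0.0084. The groups did not overlap in 4 of the 22 (18.2%), beside 11.5% of all tested genes. Most of the 22 were highest in overexpression replicate 1, so their estimates are not independent observations. Pola1, a DNA polymerase subunit, had 7.29 ± 0.157 FPKM in wild type and 8.18 ± 0.109 with overexpression (SD, n = 3). Single libraries moved this median, to 0.044 with 17 of 22 above 0 without overexpression replicate 1 and to 0.175 with 21 of 22 above 0 without overexpression replicate 3. It was 0.053 with 18 of 22 above 0 with a common sum of FPKM, a scaling that moved the median of all tested genes to -0.047.

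All 12 DREAM targets of G2/M had estimates above 0, with a median of 0.10, beside 6506 of 12222 tested genes. The groups did not overlap in 1 of them (8.33%), beside 11.5% of all tested genes. Overexpression replicate 1 was the highest library in all of the 12 except Ccnb2 and Top2a. The 12 estimates thus moved together and are not independent observations. With a common sum of FPKM 10 of 12 lay above 0 with a median of 0.041, and without overexpression replicate 1 it was 10 of 12 with a median of 0.043. Without overexpression replicate 3 it was 12 of 12 with a median of 0.154. Cdc20, which activates the anaphase-promoting complex, had 54.2, 53.9 and 57.3 FPKM in wild type replicates 1, 2 and 3 and 66.7, 63.7 and 58.8 FPKM in overexpression replicates 1, 2 and 3 (limma adjusted p = 0.842). Its groups did not overlap, and overexpression replicate 3 lay closest to wild type. Ccna2, the cyclin of S phase and G2, had 35.6 ± 2.02 and 40.2 ± 2.95 FPKM (SD, n = 3).

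**Figure D4:**
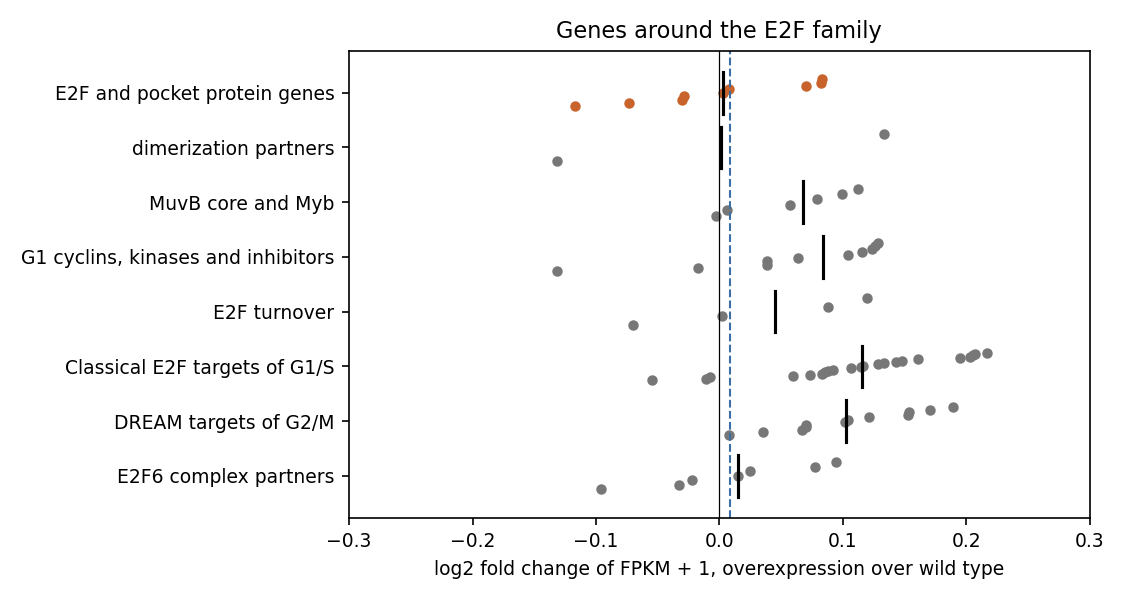
Log2 fold changes of FPKM + 1 for each tested gene (points) of the family and of 7 lists around it, with each list's median as a black bar and the median of all tested genes as a dashed line. The family is centred at 0.0029, and the medians of the E2F targets of G1/S and the DREAM targets of G2/M lie at 0.12 and 0.10. Those of the G1 cyclins, kinases and inhibitors and of the MuvB core and Myb lie at 0.084 and 0.068. E2F turnover, E2F6 complex partners and dimerization partners have medians of 0.045, 0.015 and 0.001. No gene shown passed the adjusted threshold.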

How the data were processed

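RNA was profiled in 6 libraries, 3 per group, with groups taken from the genotype labels. The authors deposited FPKM values per Ensembl gene ID, per the file headers; the build was mm10, per the submitters' processing notes, while no aligner, counting program or annotation version is named in the sources used here. Symbols came from GENCODE M21, completed by gene name records, for 24816 of 24938 IDs. Whole reads were recovered from the FPKM steps: 79.5% of genes were whole within 0.01 reads (plus a relative 1e-07) at the annotated exon length, and for the others, E2f3, E2f4, E2f6 and Rbl2 among them, the smallest length giving whole reads was used. The recovered reads serve for depth, library scale, 1 alternative test and counting error only, and reads of amplified libraries understate counting error. In each library the scale behind the listed FPKM nearly equalled the median over genes of its reads relative to all libraries. For overexpression replicate 1 both were 0.860 of their mean. The common upper quartile and the common sum of FPKM replace that scale. The main test fitted log2(FPKM + 1) in limma 3.58.1 (R 4.3.3) on group alone, with moderation set to trend and robust, for the 12222 genes above 1 FPKM in at least 3 libraries, with Benjamini-Hochberg adjustment over all of them and calls at 0.05. The log2(FPKM + 1) scale understates changes of low genes. Simulated data with known changes were used to check this test. The simulated counts were drawn independently for each library, with the same dispersion for every gene. Near-identical or outlying libraries were not simulated, so the check does not cover them.

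The members and lists were chosen with earlier results of these data known. Named besides the members were the 2 genes with the smallest p of each list and the 3 genes nearest in profile to the 2 most variable members, of which 1 gene is not reported here; E2f6's neighbours, Fen1 and the germline genes were named after their values were seen. Alternatives were a pseudocount of 0.1 or 5, a filter at 5 FPKM or none, a replicate block, leaving out each library, 2 rescalings, array weights, averaging wild type replicates 1 and 2, and limma-voom on recovered reads. The labels do not say that replicate numbers pair the libraries.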

Additional observations from a re-analysis of the deposited data

How the results depend on the processing

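The count of 0 genes past the threshold held in 14 of 17 alternatives. It became 2241 of 12222 with array weights, where 1 member passed, and ran from 0 to 2 when single libraries were left out, with 2 without wild type replicate 3 and 1 without overexpression replicate 1. The members past the threshold stayed at 0 in every other alternative. Members with non-overlapping groups ran from 0 to 3 over the leave-one-out settings. The median log2 fold change of the members ran from -0.031 to 0.023 over them, and was -0.0584 with a common sum of FPKM and 0.0468 with array weights and wild type replicates 1 and 2 averaged, the latter chosen after seeing the data.

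Of 151 member estimates under the alternatives, 130 kept their direction and their side of the threshold, 20 changed sign and 1 passed, all 20 within 0.058 of 0. Leaving out single libraries gave -0.031 to 0.061 for E2f1, -0.023 to 0.156 for E2f2, -0.071 to 0.006 for E2f3, 0.025 to 0.109 for E2f4, -0.192 to -0.034 for E2f5, -0.033 to 0.062 for E2f7, -0.068 to 0.023 for E2f8, 0.049 to 0.142 for Rbl1 and -0.182 to 0.018 for Rbl2. E2f1 was -0.021 and E2f7 -0.014 with a common upper quartile, and they were -0.058 and -0.049 with a common sum of FPKM. E2f1 was -0.026 with wild type replicates 1 and 2 averaged. E2f2 was -0.058 with array weights, and with averaging added E2f1 was -0.045 and Rbl2 0.047. The cause was not tested.

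Correlations across genes were taken after each gene's mean within its own group was subtracted, so they compare deviations and not levels. Same-numbered libraries of the groups had correlations of these deviations of -0.102, 0.0833 and 0.0025 for numbers 1, 2 and 3. Differently numbered libraries had correlations of deviations from -0.126 to 0.0996. With 3 libraries per group, such values cannot settle whether libraries of the groups were paired. The replicate block gave 0 genes, 0 members and 444 genes at an unadjusted limma p below 0.05, beside 632 without it. The edgeR test on recovered reads was planned and not run, because the deposited values are FPKM. Limma-voom on recovered reads called 0 genes, with 639 at an unadjusted limma p below 0.05. At 311 to 2258 reads per library, counting error of the tested members was 2.28% to 5.17%, below their spread within groups of 4.57% to 15.3%.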
